A study of Arabidopsis thaliana with 18 samples.

Results

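The ammonium transporter genes of Arabidopsis are 6 loci, AMT1;1 (AT4G13510), AMT1;2 (AT1G64780), AMT1;3 (AT3G24300), AMT1;4 (AT4G28700), AMT1;5 (AT3G24290) and AMT2 (AT2G38290). They were chosen by name, as the complete AMT family, out of 26716 genes with a probe on the array. Each had 1 probe, and all 6 probes were bright enough to be tested, as were 21060 genes in all. The genes lie in TAIR10.1 on chromosome 4 at 7858183 to 7860288 (AT4G13510), chromosome 1 at 24060640 to 24062804 (AT1G64780), chromosome 3 at 8805519 to 8807460 (AT3G24300), chromosome 4 at 14161594 to 14163342 (AT4G28700), chromosome 3 at 8801400 to 8802890 (AT3G24290) and chromosome 2 at 16039430 to 16042521 (AT2G38290). AT3G24300 and AT3G24290 are neighbours. Below, loci stand for the gene names where several members are set side by side.

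Ammonium transporters of the AMT/MEP/Rh family are membrane proteins that assemble as trimers and carry ammonium into plant cells. In roots they take up ammonium from soil, and AMT1-type transporters are shut by phosphorylation of a threonine in the C-terminal tail. In leaves, where ammonium is also released by nitrite reduction, photorespiration and protein breakdown, they are thought to retrieve ammonium from the apoplast before glutamine synthetase and glutamate synthase assimilate it.

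The study used 18 one-colour microarrays, 3 for each of 6 groups, to ask how loss of nitrate-driven AO expression changes gene expression as N supply changes. AO encodes L-aspartate oxidase, the first enzyme of de novo NAD synthesis. AOpro(mut)-AO plants carried the AO locus with a mutated binding site for NLP transcription factors in its promoter, and AOpro(wt)-AO plants carried the same locus with the unchanged promoter. Both transgenes stood in the fin4-2 ao null background, so neither line is untransformed wild type, and the arrays held a single line (#1) of each genotype.

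Shoots of a few pooled seedlings made up each biological replicate. Plants grown for 17 days in hydroponic culture under constant light were sampled first on medium with N (unstarved), then when they had spent 3 days without N (starved), and last (resupplied) at 24 hours of resupply with 10 mM KNO3 that followed those 3 days. That time is from the labels, which place germination on the same medium before it, while the methods give a longer time on this medium without saying whether germination is counted. Arrays of plants kept on N over the same days were not analysed here, so a change between stages also holds any change with age. Whether fewer cells of a type or less RNA per cell lay behind a lower signal cannot be told apart in whole shoots.

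Signal is given as log2 of the processed signal minus the 75th percentile of its array, so 0 is that percentile, and levels of different probes are not compared. The 75th percentile lay between 2214 and 3111 over the 18 arrays, and 72.6% to 76.1% of spots were well above background. AO itself lay between -1.62 and -0.87 on the 9 AOpro(mut)-AO arrays and between 0.51 and 1.63 on the 9 AOpro(wt)-AO arrays. The 6 leaf markers each exceeded background on all 18 arrays. Of 11 root markers, CASP5 and EXPA18 were above background on no array, and the summed linear level of the list lay between 0.181 and 0.235 in AOpro(mut)-AO groups and between 0.157 and 0.216 in AOpro(wt)-AO groups, in units of the 75th percentile.

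The lines differed in 2 of 6 transporter genes in unstarved plants, in 4 in starved plants and in 5 in resupplied plants. AMT1;1 and AMT2 were lower in AOpro(mut)-AO plants at all 3 stages, AMT1;5 was lower and AMT1;4 higher at the last 2 stages, and AMT1;2 was higher after resupply. A gene was counted at an adjusted p of 0.05 or less (limma, Benjamini-Hochberg over all probes tested). By this rule 38.7% of all genes differed between unstarved plants of the lines, 52.1% between starved plants and 47.4% between resupplied plants, so the members' counts stand on a high background. The median log2 difference of the 6 members was -0.26, -0.34 and -0.10 at the 3 stages, beside -0.01, -0.00 and 0.01 over all genes. The groups did not overlap for 2, 4 and 5 of the members, beside 53.5%, 63.2% and 52.4% of all genes.

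**Figure D1:**
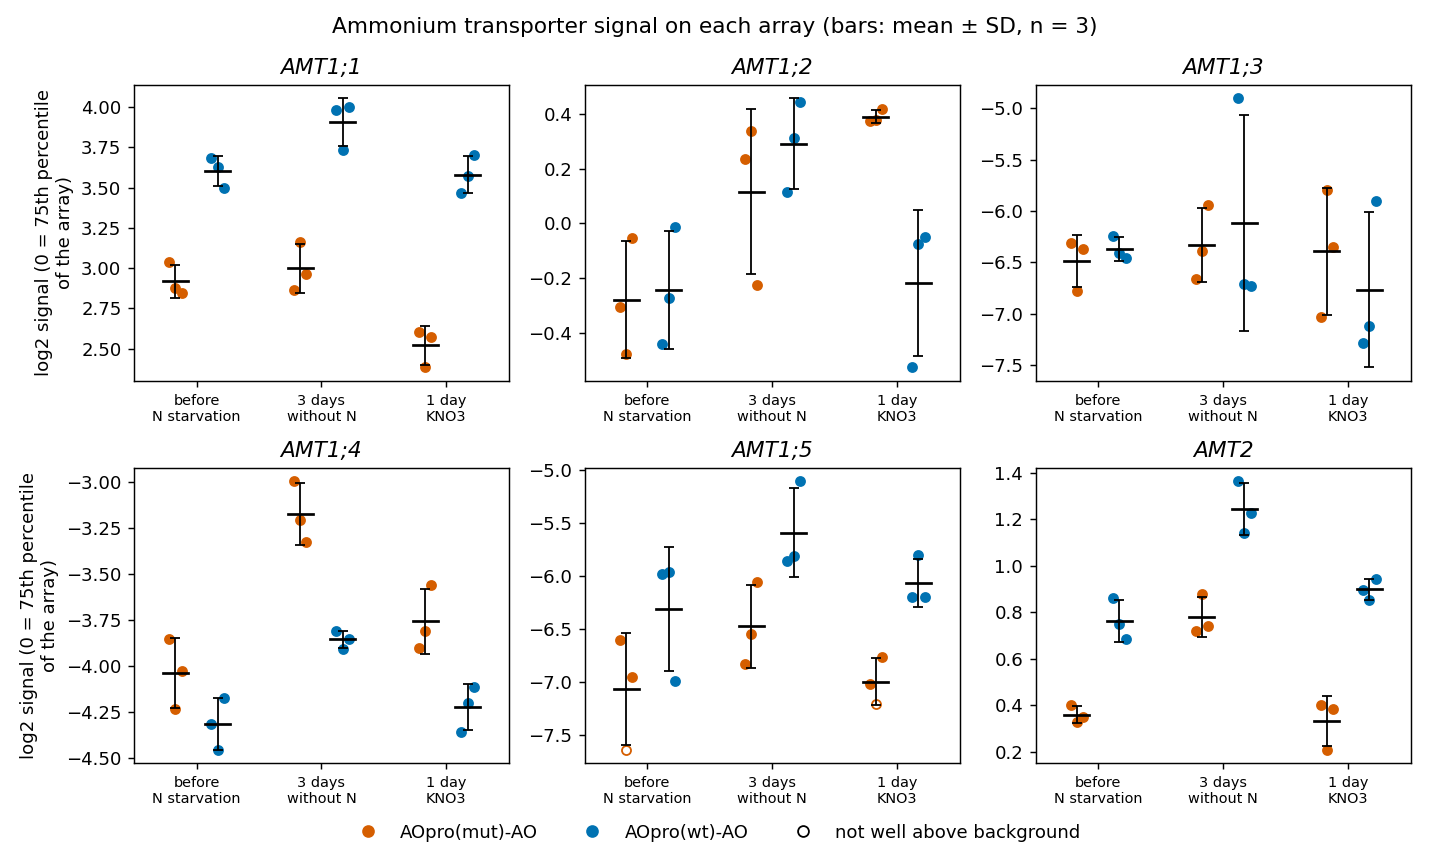
Log2 signal of each ammonium transporter on each of the 18 arrays, by stage along the x axis, AOpro(mut)-AO left and AOpro(wt)-AO right at each stage. Bars are the mean ± SD of 3 arrays and open symbols are spots not well above background. The 2 lines stand apart at every stage for AT4G13510 and AT2G38290, and the arrays of AT3G24300 scatter widely.

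AMT1;1 is a high-affinity plasma membrane transporter of root epidermis that is also expressed in leaves. Before N starvation its log2 signal was 3.04, 2.88 and 2.85 in AOpro(mut)-AO plants, against 3.68, 3.63 and 3.50 in AOpro(wt)-AO plants. After 3 days without N it was 2.87, 3.17 and 2.96 in AOpro(mut)-AO plants, against 3.98, 3.73 and 4.001 in AOpro(wt)-AO plants. Every AOpro(mut)-AO array was below every AOpro(wt)-AO array at both stages. After resupply it was 2.60, 2.38 and 2.57 in AOpro(mut)-AO plants, against 3.47, 3.57 and 3.70 in AOpro(wt)-AO plants, again with no overlap. The difference was -0.68 (SE 0.098, adjusted p = 7.94e-05, limma), then -0.91 (adjusted p = 3.58e-06) and then -1.06 (adjusted p = 7.29e-07). After resupply the signal was thus 2.09-fold lower in AOpro(mut)-AO plants, and this was the 1 transporter difference in 18 that reached 2-fold, as 6.9% of all genes did at that stage. Of the 21060 genes, 4.68%, 4.12% and 2.31% had a lower difference at the 3 stages. On the 2, 3 and 2 slides that held both lines at these stages, all differences were negative, at -0.65 on both slides before starvation, between -1.11 and -0.57 after it, and between -1.13 and -0.86 after resupply.

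The signal of AMT1;1 also moved with N supply, by less than 2-fold. In AOpro(mut)-AO plants it averaged 3.00 ± 0.15 after 3 days without N and 2.92 ± 0.10 before (SD, n = 3 each), which is a difference of 0.08 (95% interval -0.13 to 0.29, adjusted p = 0.559, limma). In AOpro(wt)-AO plants it averaged 3.91 ± 0.15 after 3 days without N and 3.60 ± 0.09 before, a rise of 0.30 (SE 0.098, adjusted p = 0.0164). The difference between these 2 changes was -0.22 (adjusted p = 0.33), so a different response of the lines to N starvation was not shown. Resupply lowered the signal in both lines, to 2.52 ± 0.12 in AOpro(mut)-AO plants, which is -0.48 from the starved level (adjusted p = 0.00304), and to 3.58 ± 0.12 in AOpro(wt)-AO plants, which is -0.32 (adjusted p = 0.0142). Against unstarved plants of the same line the resupplied level was -0.40 in AOpro(mut)-AO plants (adjusted p = 0.00751) and -0.02 in AOpro(wt)-AO plants (95% interval -0.23 to 0.19, adjusted p = 0.876). The difference between these last 2 values was not tested.

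The changes of AMT1;1 with N supply in AOpro(wt)-AO plants rested on few arrays. The rise with starvation lost its call without AOpro(wt)-AO unstarved replicate 3 (0.25, adjusted p = 0.0691), starved replicate 1 (0.26, adjusted p = 0.0611) or starved replicate 3 (0.25, adjusted p = 0.0672). The fall with resupply lost its call without starved replicate 1 (-0.29, adjusted p = 0.0545), starved replicate 3 (-0.28, adjusted p = 0.0597) or resupplied replicate 1 (-0.27, adjusted p = 0.0539). With the slide as a block both calls were lost (0.25, adjusted p = 0.0736, and -0.28, adjusted p = 0.0811), while the differences between the lines were called at each stage in all these fits.

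AMT2, a transporter of a separate subfamily that moves ammonium toward the xylem and works in concert with AMT1 proteins, gave the most even pattern of the 6. Before N starvation its log2 signal was 0.40, 0.33 and 0.35 in AOpro(mut)-AO plants, against 0.86, 0.75 and 0.68 in AOpro(wt)-AO plants. After 3 days without N it was 0.72, 0.88 and 0.74 in AOpro(mut)-AO plants, against 1.36, 1.14 and 1.23 in AOpro(wt)-AO plants. After resupply it was 0.40, 0.21 and 0.38 in AOpro(mut)-AO plants, against 0.90, 0.85 and 0.94 in AOpro(wt)-AO plants. The lines did not overlap at any stage. The differences were -0.40 (SE 0.070, adjusted p = 0.000428, limma), -0.46 (adjusted p = 8.44e-05) and -0.57 (adjusted p = 1.4e-05), and they were negative on every slide that held both lines (2, 3 and 2 slides).

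Starvation raised and resupply lowered AMT2 in both lines by similar amounts. The rise was 0.42 in AOpro(mut)-AO plants (adjusted p = 0.000417) and 0.48 in AOpro(wt)-AO plants (adjusted p = 5.33e-05). The fall was -0.45 in AOpro(mut)-AO plants (adjusted p = 0.000594) and -0.35 in AOpro(wt)-AO plants (adjusted p = 0.00117). In both cases the 3 arrays of one stage lay apart from the 3 of the other. The lines' responses differed by -0.06 for starvation (95% interval -0.27 to 0.15) and by -0.10 for resupply (95% interval -0.32 to 0.11), and neither passed (adjusted p = 0.742 and 0.595). Resupplied plants differed from unstarved ones by -0.03 in AOpro(mut)-AO plants and by 0.13 in AOpro(wt)-AO plants (adjusted p = 0.79 and 0.144). None of these calls on AMT2 was lost when any 1 array was left out.

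**Figure D2:**
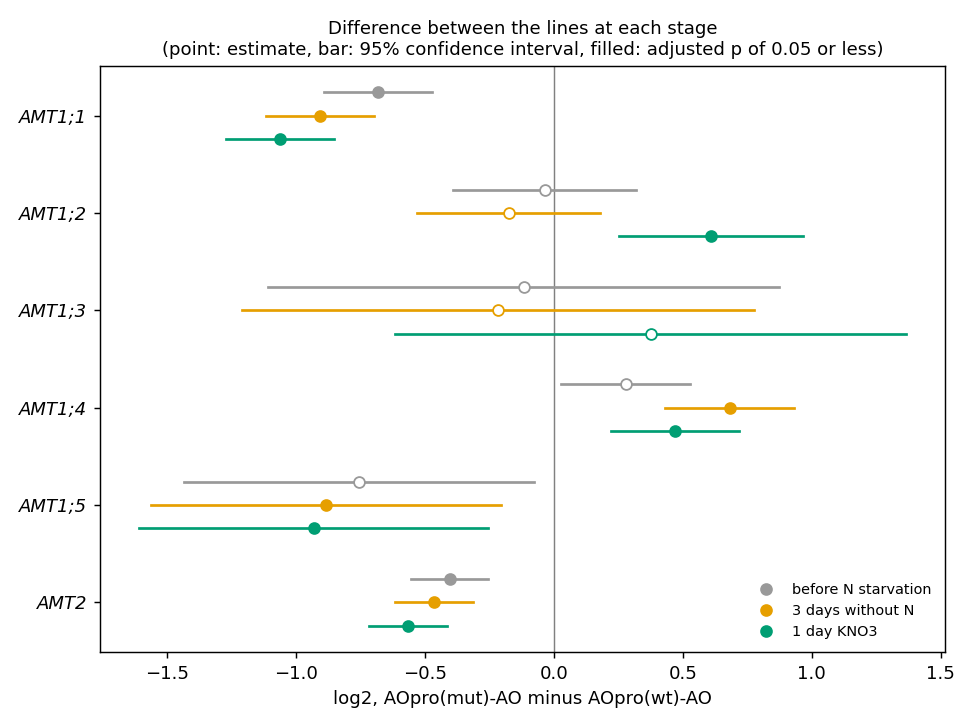
Log2 difference between AOpro(mut)-AO and AOpro(wt)-AO plants for each transporter at the 3 stages, with 95% confidence intervals. Filled symbols have an adjusted p of 0.05 or less. AT4G13510 and AT2G38290 lie left of 0 at all 3 stages, while AT1G64780 lies near 0 at the first 2 stages and at 0.61 after resupply.

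AMT1;2, which in roots serves ammonium that enters through the apoplast at the endodermis and cortex, showed no line difference until nitrate was given back. Before N starvation its log2 signal was -0.31, -0.48 and -0.05 in AOpro(mut)-AO plants, against -0.44, -0.27 and -0.01 in AOpro(wt)-AO plants. After 3 days without N it was 0.24, 0.34 and -0.23 in AOpro(mut)-AO plants, against 0.12, 0.31 and 0.45 in AOpro(wt)-AO plants. The lines overlapped at both stages, with differences of -0.04 (95% interval -0.39 to 0.32) and -0.18 (95% interval -0.53 to 0.18). After resupply it was 0.38, 0.38 and 0.42 in AOpro(mut)-AO plants, against -0.53, -0.08 and -0.05 in AOpro(wt)-AO plants, a difference of 0.61 (SE 0.17, adjusted p = 0.0081, limma) with no overlap.

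The change of AMT1;2 on resupply had opposite signs in the lines. From the starved level it was 0.27 in AOpro(mut)-AO plants (95% interval -0.08 to 0.63, adjusted p = 0.24) and -0.51 in AOpro(wt)-AO plants (adjusted p = 0.0211). The difference between them was 0.78 (95% interval 0.28 to 1.29) with an unadjusted p of 0.00477 and an adjusted p of 0.0638, which missed both the adjusted threshold of 0.05 and the unadjusted threshold of 0.001 used by the study for interactions. By the adjusted rule 6.15% of all genes passed this interaction, and 7.75% passed the interaction with starvation, while 3.84% and 4.02% passed at the unadjusted threshold. Of the 6 members, 0 passed either interaction by either rule (limma), and at an unadjusted p of 0.05 or less 1 passed each, AT4G28700 for starvation (0.0275) and AT1G64780 for resupply. Without AOpro(mut)-AO starved replicate 2 the interaction of AMT1;2 passed, at 0.90 (adjusted p = 0.0427).

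Starvation itself moved AMT1;2 by 0.40 in AOpro(mut)-AO plants (adjusted p = 0.073) and raised it by 0.54 in AOpro(wt)-AO plants (adjusted p = 0.0128). Against unstarved plants, the resupplied level was higher by 0.67 in AOpro(mut)-AO plants (adjusted p = 0.00801), where all 3 resupplied arrays lay above all 3 unstarved ones, and differed by 0.03 in AOpro(wt)-AO plants (adjusted p = 0.916). Whether the lines differed in this was not tested. The call on starvation in AOpro(mut)-AO plants was gained without unstarved replicate 3 (0.51, adjusted p = 0.0437) or starved replicate 3 (0.57, adjusted p = 0.0165), and with plain subtraction of local background (0.46, adjusted p = 0.0387). In AOpro(wt)-AO plants the rise with starvation lost its call without unstarved replicate 1 (0.44, adjusted p = 0.0598) or starved replicate 3 (0.46, adjusted p = 0.0536). The fall with resupply there lost its call without starved replicate 2 (-0.50, adjusted p = 0.0535), starved replicate 3 (-0.43, adjusted p = 0.0803) or resupplied replicate 1 (-0.35, adjusted p = 0.0957).

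AMT1;4 is known as a transporter of pollen, and it was the only member with higher signal in AOpro(mut)-AO plants at more than 1 stage. The processed signal was 123 to 298 units, well above background on all 18 arrays. Before N starvation the log2 signal was -3.85, -4.23 and -4.03 in AOpro(mut)-AO plants, against -4.31, -4.46 and -4.18 in AOpro(wt)-AO plants, with overlap and a difference of 0.28 (adjusted p = 0.0764, limma). After 3 days without N it was -2.99, -3.21 and -3.33 in AOpro(mut)-AO plants, against -3.81, -3.91 and -3.85 in AOpro(wt)-AO plants. After resupply it was -3.90, -3.81 and -3.56 in AOpro(mut)-AO plants, against -4.36, -4.20 and -4.11 in AOpro(wt)-AO plants. The groups did not overlap at these last 2 stages, where the differences were 0.68 (SE 0.12, adjusted p = 0.000232) and 0.47 (adjusted p = 0.00444).

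Starvation gave AMT1;4 the largest change of any member in AOpro(mut)-AO plants but not in AOpro(wt)-AO plants, where the estimates for AT3G24290, AT1G64780 and AT2G38290 were larger, and resupply lowered it in both lines. The rise with starvation was 0.86 in AOpro(mut)-AO plants (adjusted p = 0.0001) and 0.46 in AOpro(wt)-AO plants (adjusted p = 0.00362), and the difference between these rises, 0.40, did not pass (adjusted p = 0.145). The fall with resupply was -0.58 in AOpro(mut)-AO plants (adjusted p = 0.00263) and -0.37 in AOpro(wt)-AO plants (adjusted p = 0.0177). Against unstarved plants the resupplied level differed by 0.28 in AOpro(mut)-AO plants and by 0.09 in AOpro(wt)-AO plants (adjusted p = 0.081 and 0.561). Of the 6 pollen and flower markers, AP1, a floral identity gene, was above background on all 18 arrays, and the pollen genes PPME1 and ACA9 on none. The summed level of the list was 0.0953 to 0.131, 0.194 to 0.281 and 0.266 to 0.300 at the 3 stages in AOpro(mut)-AO plants, against 0.0327 to 0.0487, 0.104 to 0.166 and 0.0891 to 0.167 in AOpro(wt)-AO plants. AP1 carried most of this sum, with a mean log2 signal of -3.31, -2.14 and -1.88 at the 3 stages in AOpro(mut)-AO plants. The 5 pollen genes of the list were each above background on 2 arrays at most, so their levels are not read here. The part of the list in the signal of AMT1;4 was not tested.

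Calls on AMT1;4 depended on single arrays in 3 comparisons, on the slide and on the background correction. The line difference before N starvation was gained without AOpro(mut)-AO unstarved replicate 2 (0.38, adjusted p = 0.0318), and the difference between resupplied and unstarved AOpro(mut)-AO plants was gained without unstarved replicate 1 (0.37, adjusted p = 0.0426). With the slide as a block both of these were called (0.32, adjusted p = 0.0185, and 0.36, adjusted p = 0.0233). The fall with resupply in AOpro(wt)-AO plants lost its call without starved replicate 1 (-0.35, adjusted p = 0.0541) or resupplied replicate 1 (-0.30, adjusted p = 0.0659). With normexp background correction none of the 6 calls on AMT1;4 was kept, and the line difference after resupply became -0.01 (adjusted p = 0.988). With plain subtraction of local background all 6 were kept.

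AMT1;5, a high-affinity transporter of root epidermis, was near the limit of detection in shoots. Its processed signal was 14.5 to 85.2 units, and 16 of 18 spots were well above background, with 2 of 3 in AOpro(mut)-AO plants before N starvation and 2 of 3 after resupply. Before N starvation the log2 signal was -6.60, -7.64 and -6.96 in AOpro(mut)-AO plants, against -5.99, -5.96 and -6.99 in AOpro(wt)-AO plants. After 3 days without N it was -6.83, -6.55 and -6.05 in AOpro(mut)-AO plants, against -5.86, -5.81 and -5.10 in AOpro(wt)-AO plants. The lines overlapped before starvation only. After resupply it was -7.02, -7.21 and -6.76 in AOpro(mut)-AO plants, against -6.19, -5.80 and -6.19 in AOpro(wt)-AO plants. The difference was -0.76 before starvation (SE 0.32, adjusted p = 0.0772, limma), -0.89 after starvation (adjusted p = 0.0312) and -0.93 after resupply (adjusted p = 0.027).

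Neither starvation nor resupply gave a call on AMT1;5 in either line. Its change with starvation was 0.59 in AOpro(mut)-AO plants and 0.72 in AOpro(wt)-AO plants (adjusted p = 0.156 and 0.0643). The call after 3 days without N was lost without AOpro(mut)-AO replicate 1 (-0.71, adjusted p = 0.121) or 2 (-0.85, adjusted p = 0.0739) or AOpro(wt)-AO replicate 3 (-0.64, adjusted p = 0.139). The call after resupply was lost without AOpro(mut)-AO replicate 1 (-0.92, adjusted p = 0.0613) or 2 (-0.82, adjusted p = 0.0882) or AOpro(wt)-AO replicate 2 (-0.80, adjusted p = 0.0915). Plain subtraction of local background ended both calls and left differences of -0.28 (adjusted p = 0.0516) and -0.27 (adjusted p = 0.063), and normexp ended both as well (-0.24, adjusted p = 0.84, and -0.81, adjusted p = 0.288). A call before starvation was gained without AOpro(mut)-AO replicate 1 (-0.99, adjusted p = 0.0419) or AOpro(wt)-AO replicate 3 (-1.09, adjusted p = 0.0151), and a call on starvation in AOpro(wt)-AO plants without unstarved replicate 1 (0.89, adjusted p = 0.0495) or 2 (0.90, adjusted p = 0.0467). Quantile normalization also gave a call before starvation (-0.81, adjusted p = 0.0446), and the deposited normalized table a call on starvation in AOpro(wt)-AO plants (0.62, adjusted p = 0.0273).

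AMT1;3, its neighbour on chromosome 3 and also a root epidermis transporter, passed no test. Its processed signal was 18.6 to 76.3 units, well above background on all 18 arrays. Its log2 signal ranged from -7.03 to -5.80 in AOpro(mut)-AO plants over the 9 arrays, against -7.28 to -4.90 in AOpro(wt)-AO plants. The highest value, -4.90, was 1 starved AOpro(wt)-AO array whose 2 companions were at -6.72 and -6.73. The SD within groups, pooled over the 6 groups, was 0.61, beside a median of 0.105 over all probes tested. Line differences of -0.12, -0.22 and 0.38 at the 3 stages therefore had 95% intervals of -1.11 to 0.87, -1.21 to 0.77 and -0.62 to 1.37, which leave room for 2-fold differences.

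**Figure D3:**
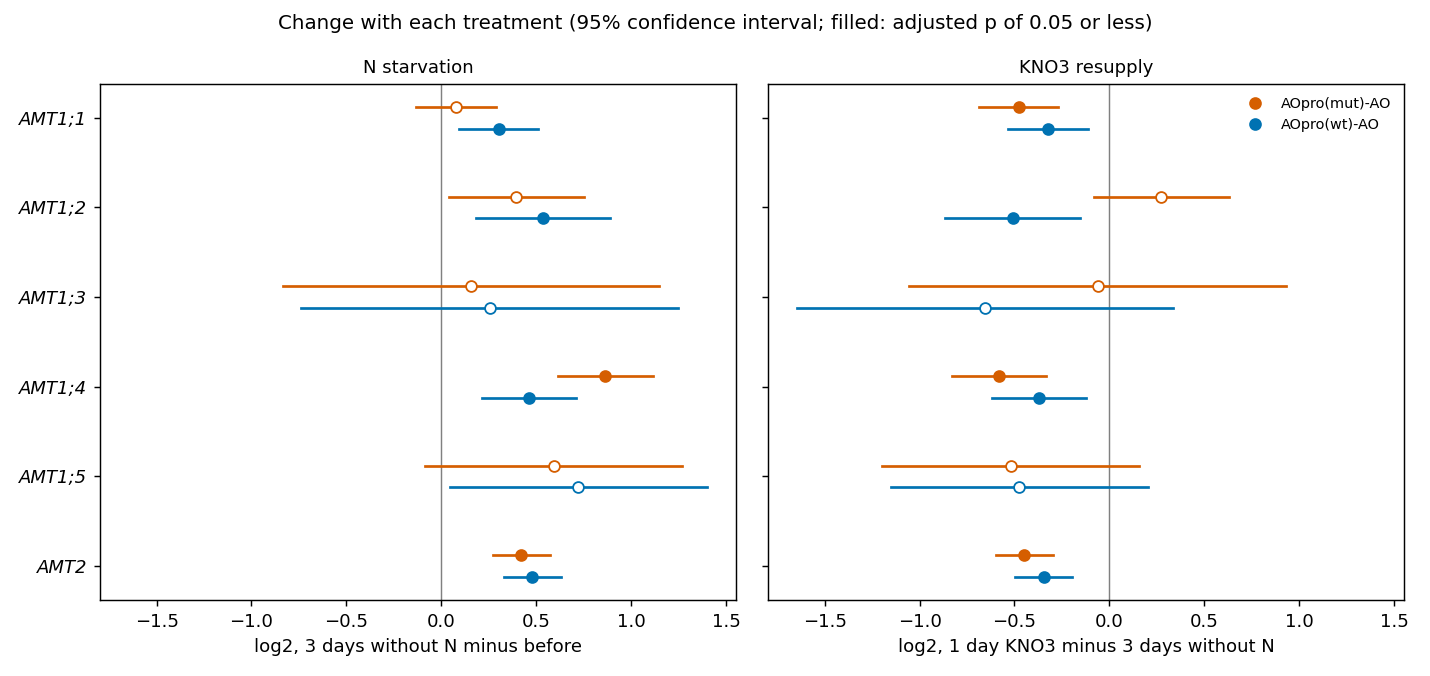
Log2 change of each transporter with N starvation (left panel) and with KNO3 resupply (right panel), with 95% confidence intervals, AOpro(mut)-AO drawn above AOpro(wt)-AO. All 12 estimates for starvation are above 0, and 11 of the 12 for resupply are below 0, the exception being AT1G64780 in AOpro(mut)-AO plants at 0.27.

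Across the family, starvation raised 2 of 6 members in AOpro(mut)-AO plants and 4 of 6 in AOpro(wt)-AO plants. In AOpro(mut)-AO plants 17.8% of all genes were called higher and 41.4% in either direction, and in AOpro(wt)-AO plants 28% were called higher and 59.9% in either direction. The median change of the members was 0.41 in AOpro(mut)-AO plants and 0.47 in AOpro(wt)-AO plants, beside -0.00 and -0.01 over all genes. Resupply lowered 3 of 6 members in AOpro(mut)-AO plants, where 12.9% of all genes were lower and 27.4% changed, and 4 of 6 in AOpro(wt)-AO plants, where 25% were lower and 48.3% changed. The median change of the members was -0.46 in AOpro(mut)-AO plants and -0.42 in AOpro(wt)-AO plants, beside 0.01 and -0.02 over all genes. The arrays of the 2 stages did not overlap with starvation for 2 members in AOpro(mut)-AO plants (53% of all genes) and 5 in AOpro(wt)-AO plants (69.1%), and with resupply for 4 members in each line (45% of all genes in AOpro(mut)-AO plants and 54.1% in AOpro(wt)-AO plants). Both comparisons use the same starved arrays with opposite signs.

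Resupplied plants differed from unstarved plants in 2 of 6 members in AOpro(mut)-AO plants, AT1G64780 being higher and AT4G13510 lower, and in none in AOpro(wt)-AO plants. By limma, 32.5% of all genes differed in AOpro(mut)-AO plants and 42.4% in AOpro(wt)-AO plants, and arrays of 47.7% and 52.2% of genes did not overlap, beside 2 and 0 of the 6 members. Of the 6 members in AOpro(wt)-AO plants, none had an unadjusted p under 0.05 in that comparison. The lowest unadjusted p there was 0.0771, for AT2G38290. Whether the change from unstarved to resupplied plants differed between the lines was not tested for any member.

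The order of the 6 groups differed between members. For AT4G13510 all 3 AOpro(mut)-AO groups lay below all 3 AOpro(wt)-AO groups, with 0.58 between the lowest AOpro(wt)-AO mean and the highest AOpro(mut)-AO mean and no overlap of arrays. For AT2G38290 the starved AOpro(mut)-AO mean of 0.78 lay 0.02 above the unstarved AOpro(wt)-AO mean of 0.76, with overlapping arrays. Starved AOpro(wt)-AO plants ranked highest for AT4G13510, AT2G38290, AT3G24290 and AT3G24300, resupplied AOpro(mut)-AO plants for AT1G64780, and starved AOpro(mut)-AO plants for AT4G28700. Neighbouring groups overlapped at all 5 steps of this order for AT1G64780, AT3G24290 and AT3G24300.

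**Figure D4:**
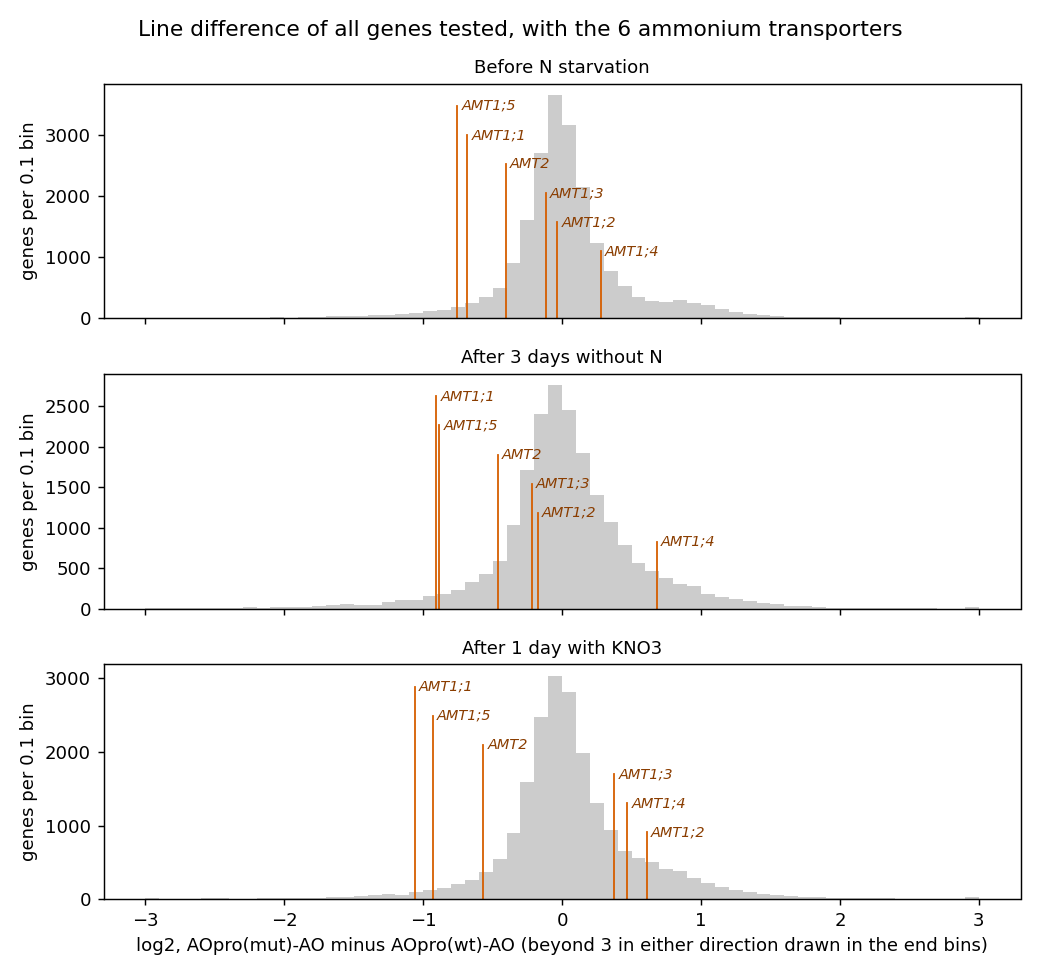
Number of genes per 0.1 log2 bin of the difference between AOpro(mut)-AO and AOpro(wt)-AO plants at the 3 stages, over 21060 genes, with the 6 transporters as lines. AT4G13510 and AT3G24290 lie in the left tail at each stage, where 4.68% and 4.07% of genes are lower before N starvation and 2.31% and 2.93% after resupply. The difference of AT3G24290 before N starvation was not called, and its dim signal had a pooled SD within groups of 0.42.

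Genes with a pattern like a member's were picked by Pearson's r of log2 signal over the 18 arrays among 19643 genes. Those most like AT4G13510 were RLP36 (r = 0.985), AT5G39000 (0.985) and AT3G11402 (0.982). Those most like AT2G38290 were AT5G38210 (0.982), EDA39 (0.982) and AT1G66880 (0.981). For AT1G64780 they were GBSS1 (0.930), which encodes granule-bound starch synthase, TT7 (0.888), a flavonoid hydroxylase, and KUP3 (0.874), a potassium transporter. For AT4G28700 they were AT1G61255 (0.938), AT5G56840 (0.929) and OPT1 (AT5G55930, 0.924). Of these, AT5G56840 and OPT1 lie on chromosome 5 between AT5G49520 and AT5G61610, a stretch described below with GLT1. Its part in their likeness to AT4G28700 was not tested. For the dim AT3G24300 r was 0.745 at most. AT3G24290 was not above background on every array and was left out. All arrays share the same 6 groups, so these values describe shared group means.

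Genes that make, use or gate ammonium were followed as 5 lists with 39 genes, all tested. Before N starvation 6 were higher and 15 lower in AOpro(mut)-AO plants, after 3 days without N 14 and 10, and after resupply 13 and 9, where 38.7%, 52.1% and 47.4% of all genes were called in either direction. Their median log2 difference was -0.07, 0.07 and 0.04, beside -0.01, -0.00 and 0.01 over all genes. In the list of glutamine synthetases and glutamate synthases the leading line difference was GLT1 (AT5G53460), NADH-dependent glutamate synthase, at 1.29, 1.82 and 1.23 (adjusted p = 9.56e-07, 2.14e-08 and 1.22e-06, limma). GLT1 and CAP1 (AT5G61350), a receptor-like kinase, lie in a stretch of chromosome 5 from AT5G49520 to AT5G61610 in which 390 of 1033 tested genes were at least 2-fold higher and 3 at least 2-fold lower in AOpro(mut)-AO plants before N starvation. None of the 6 transporters lies there (0 of 6).

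In the ammonium release list, 1 of 17 genes was higher and 9 were lower before N starvation, beside 38.7% of all genes called in either direction. Beside 52.1% and 47.4% of all genes, 5 were higher and 3 lower after starvation, and 6 and 5 after resupply, in this list. Its leading line differences were PAL1, a phenylalanine ammonia lyase, at -0.94 before starvation (adjusted p = 0.00287), NIR1, nitrite reductase, at 0.76 after starvation (adjusted p = 3.88e-05), and ASPGB1, an asparaginase, at 1.48 after resupply (adjusted p = 2.31e-05). Of 5 genes for phosphorylation of AMT proteins and nitrate sensing, NRT1.1, the nitrate transceptor, was lower before starvation, at -0.56 (adjusted p = 0.00172). CBL9, a calcium sensor, was higher by 0.44 and 0.31 at the next 2 stages (adjusted p = 1.47e-06 and 4.56e-05). Among 3 tonoplast aquaporins that pass ammonia, AT4G17340 was higher by 0.66 before starvation and 0.35 after resupply (adjusted p = 0.000559 and 0.0286), and AT3G16240 by 0.75 after starvation (adjusted p = 5.77e-05). In the ammonium tolerance list SLAH3, an anion channel, led before starvation at 0.91 (adjusted p = 0.0101), and CAP1 later at 1.63 and 1.16 (adjusted p = 0.00769 and 0.0489). After starvation the arrays of the lines overlapped for CAP1, with an SD of 1.23 in AOpro(wt)-AO plants. That difference ranged from 0.73 to 1.63 under the other processing settings (adjusted p up to 0.174). Its call was kept with any 1 array left out (adjusted p up to 0.0438). The call on CAP1 after resupply was lost whichever 1 of the 6 arrays was left out (adjusted p = 0.0519 to 0.166), and that on AT4G17340 after resupply was lost for 4 of them (adjusted p up to 0.128).

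With starvation, 6 of the 39 genes rose and 9 fell in AOpro(mut)-AO plants, and 10 rose and 17 fell in AOpro(wt)-AO plants, beside 41.4% and 59.9% of all genes called in these lines. The median change was -0.01 in AOpro(mut)-AO plants and -0.13 in AOpro(wt)-AO plants. AT5G16570, a cytosolic glutamine synthetase, rose by 1.298 in AOpro(mut)-AO plants and by 2.13 in AOpro(wt)-AO plants (adjusted p = 7.26e-06 and 2.14e-08), and NRT1.1 rose by 0.95 and 0.83 (adjusted p = 5.3e-05 and 3.47e-05). In the release list the leading change was ASPGB1 in AOpro(mut)-AO plants at 1.41 (adjusted p = 0.00011) and NIR1 in AOpro(wt)-AO plants at -1.70 (adjusted p = 6.43e-08). No aquaporin of the list passed in AOpro(mut)-AO plants (0 of 3, limma), and AT3G16240 led in AOpro(wt)-AO plants at -0.87 (adjusted p = 1.54e-05). The tolerance list was led by SLAH3 at 0.72 in AOpro(mut)-AO plants (adjusted p = 0.0318) and by CAP1 at -1.297 in AOpro(wt)-AO plants (adjusted p = 0.0228). Each of these calls was lost for 4 of the 6 arrays left out in turn, with adjusted p up to 0.108 for SLAH3 and 0.125 for CAP1.

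With resupply, 2 of the 39 genes rose and 7 fell in AOpro(mut)-AO plants, and 6 rose and 12 fell in AOpro(wt)-AO plants, beside 27.4% and 48.3% of all genes called in these lines. The median change was -0.05 in AOpro(mut)-AO plants and -0.02 in AOpro(wt)-AO plants. The glutamine synthetase AT5G37600 led the assimilation list in AOpro(mut)-AO plants at -0.81 (adjusted p = 0.000394), and AT5G16570 in AOpro(wt)-AO plants at -1.87 (adjusted p = 7.37e-08). NRT1.1 fell in both lines, at -0.40 in AOpro(mut)-AO plants and -0.64 in AOpro(wt)-AO plants (adjusted p = 0.0213 and 0.000487). The call in AOpro(mut)-AO plants was lost without starved replicate 2, resupplied replicate 1 or resupplied replicate 2 (adjusted p up to 0.0723). Other leading changes in AOpro(mut)-AO plants were GDH3, a glutamate dehydrogenase, at -0.53 (adjusted p = 0.0464) and EGY1, a chloroplast protease, at 0.34 (adjusted p = 0.00109). The call on GDH3 was lost whichever 1 of the 6 arrays was left out (adjusted p = 0.061 to 0.138). In AOpro(wt)-AO plants they were ASPGB1 at -1.26 (adjusted p = 0.000144), AT3G16240 at 0.91 (adjusted p = 2.15e-05) and SLAH3 at 1.46 (adjusted p = 0.000289).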

How the data were processed

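RNA from shoots was labelled with Cy3 and hybridized to Agilent Arabidopsis (V4) arrays. The deposited scanner files hold intensity on a linear scale, background-corrected by the authors with Agilent Feature Extraction, version 12.1.1.1 per the file headers and the submitters' processing notes. Another version and scanner model are named in the methods. The authors also deposited a table of normalized intensity, linear and scaled close to the 75th percentile of each array.

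Here log2(processed signal) minus the 75th percentile of non-control spots was used. Spots marked non-uniform or outlying (3 to 91 per array, none of a member) were left out, and spots of a probe were averaged. Probes were named by transcript accession through the RefSeq table of TAIR10.1 (36163 of 43603), and positions are from that table. A probe was tested when well above background on all arrays of at least 1 group (29416 probes). The brightest tested probe stood for a gene. One model with 6 group means and 11 contrasts was fitted with limma 3.58.1 in R 4.3.3, with empirical Bayes variance, and p-values were adjusted by Benjamini-Hochberg. The code was tested on simulated data. Figures were drawn with matplotlib 3.10.9.

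The 6 members and all lists were chosen with earlier results of these data known. All members are described. From each list the gene with the largest change at an adjusted p of 0.05 or less is named per comparison, and the 3 most similar genes per member well above background throughout. Arrays within a group correlated at 0.993 to 0.997, and 0 pairs held identical values. The number of arrays limits the precision. Alternatives were quantile normalization, normexp with offset 50, the deposited normalized table, marked spots kept, no filter, a filter on all 18 arrays, only the arrays compared, replicate number or slide as a block, and each array left out. Plain subtraction of local background with offset 50 was chosen after seeing the data. Member sequences were not analysed here.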

Additional observations from a re-analysis of the deposited data

Results flagged for a closer look

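Of the 39 genes of the 5 ammonium lists, 6 passed higher and 2 lower in the interaction with starvation (limma, adjusted over all probes tested). In the interaction with resupply 2 passed higher and 2 lower. Beside these stand 7.75% and 6.15% of all genes. For each list only the gene with the largest interaction is given below. For starvation this leaves out others of the release list, where 3 passed, all higher. It also leaves out one of the phosphorylation list, where 1 was higher and 1 lower. The values are the log2 change in AOpro(mut)-AO plants minus that in AOpro(wt)-AO plants, and the starved arrays enter both interactions with opposite signs. For starvation the interaction was 1.302 for NIR1 (adjusted p = 0.000419), 0.65 for TIP2;1 (adjusted p = 0.0257), 0.32 for EGY1 (adjusted p = 0.0351), -0.30 for CIPK23, a kinase of AMT1 proteins (adjusted p = 0.0362), and -0.83 for GLN1;4 (adjusted p = 0.0106). For resupply it was 1.12 for GLN1;4 (adjusted p = 0.00209), 0.31 for CIPK23 (adjusted p = 0.0349), -0.67 for TIP2;1 (adjusted p = 0.023) and -0.997 for NIR1 (adjusted p = 0.00282). The calls on NIR1 and GLN1;4 were kept with any 1 of 12 arrays left out. Those on TIP2;1 were lost with 7 and 5 of the 12 left out (adjusted p up to 0.0684 and 0.0605) and with the slide as a block (0.62, adjusted p = 0.0783, and -0.65, adjusted p = 0.0776). That for resupply was also lost with normexp (-0.60, adjusted p = 0.11). Those on CIPK23 were lost with 9 and 8 of the 12 left out (adjusted p up to 0.0927 and 0.0869) and that on EGY1 with 10 (adjusted p up to 0.0886). All 3 were lost with plain background subtraction (adjusted p = 0.0776, 0.212 and 0.11). They were also lost with the slide as a block (adjusted p = 0.0914, 0.112 and 0.0673) and with normexp (adjusted p = 0.182, 0.793 and 0.111). Some were lost under further settings too. No interaction of an ammonium transporter passed.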

How the results depend on the processing

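The differences of AMT1;1 and AMT2 between the lines were called at all 3 stages under every alternative. The number of members called per comparison stayed within 1.5 times under every alternative but normexp and single arrays left out. With normexp it was 2 after 3 days without N, 3 after resupply and 1 for starvation in AOpro(mut)-AO plants. On 2 arrays normexp gave AMT1;4 values of 560 and 425 where the signal minus local background was 154 and 156; the cause was not tested.

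Signs that turned belonged to differences that were not called, except AMT1;4 with normexp (-0.00874 between the lines after resupply, 0.0177 for resupply in AOpro(wt)-AO plants). With normexp the other turned values were, between the lines before starvation, AMT1;3 0.70 and AMT1;5 0.58, and after resupply AMT1;3 -0.43. For resupply in AOpro(wt)-AO plants they were AMT1;3 0.21 and AMT1;5 0.19, and for resupplied against unstarved plants there AMT1;3 0.42. For starvation in AOpro(mut)-AO plants they were AMT1;3 -0.51 and AMT1;5 -0.45, for resupplied against unstarved plants there AMT1;3 -0.72, AMT1;4 -0.29 and AMT1;5 -0.83, and for the interactions AMT1;4 -0.15 (starvation) and AMT1;3 -0.42 (resupply). With the slide as a block they were AMT1;2 0.0466 and AMT1;3 0.12 between the lines before starvation and, in AOpro(mut)-AO plants, AMT1;3 -0.22 (starvation) and 0.28 (resupply) and AMT1;5 -0.0739 (resupplied against unstarved). With quantile normalization they were AMT1;1 0.0192 (resupplied against unstarved, AOpro(wt)-AO) and AMT1;3 0.0187 (resupply, AOpro(mut)-AO). With the deposited table they were, in AOpro(mut)-AO plants, AMT1;3 0.0513 (resupply) and AMT1;5 -0.028 (resupplied against unstarved), and AMT1;5 0.22 (resupply interaction). With plain subtraction they were, for resupplied against unstarved AOpro(mut)-AO plants, AMT1;3 -4.27e-05 and AMT1;5 -0.0116, and AMT1;5 0.00562 (resupply interaction). The cause was not tested.

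With 1 array left out, the counts ranged from 2 to 5 for starvation and 1 to 4 for resupply in AOpro(wt)-AO plants and from 0 to 1 for the resupply interaction. Values that turned ranged, between the lines before starvation, from -0.15 to 0.0792 (AMT1;2) and -0.21 to 0.0292 (AMT1;3), and after starvation from -0.52 to 0.39 (AMT1;3). In AOpro(wt)-AO plants they ranged from -0.35 to 0.56 (AMT1;3, starvation) and, resupplied against unstarved, from -0.0821 to 0.0341 (AMT1;1), -0.0731 to 0.18 (AMT1;2) and -0.0891 to 0.42 (AMT1;5). In AOpro(mut)-AO plants they ranged from -0.00489 to 0.14 (AMT1;1) and -0.0373 to 0.32 (AMT1;3) for starvation, from -0.36 to 0.26 (AMT1;3) for resupply, and, resupplied against unstarved, from -0.20 to 0.41 (AMT1;3), -0.22 to 0.30 (AMT1;5) and -0.0639 to 0.0333 (AMT2). For the starvation interaction they ranged from -0.25 to 0.0315 (AMT1;2), -0.41 to 0.51 (AMT1;3), -0.42 to 0.21 (AMT1;5) and -0.11 to 0.000615 (AMT2), and for the resupply interaction from -0.015 to 1.03 (AMT1;3) and -0.29 to 0.16 (AMT1;5).

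Deviations from the group means correlated at -0.22 to 0.31 over 45 pairs of samples with the same replicate number (median 0.022). Over 90 pairs with different numbers they correlated at -0.24 to 0.33 (median -0.028). These ranges overlap widely, so they cannot show whether the numbers pair the samples. With the replicate block all 11 counts of members were as without it, and AMT1;1 differed between the lines by -0.68, -0.91 and -1.06 (adjusted p = 0.000269, 1.84e-05 and 4.93e-06, limma). The block ended the calls on the interactions of CIPK23 (-0.30, adjusted p = 0.0502, and 0.31, adjusted p = 0.0528) and no other call given here. Trying other probes of a gene gave no value, since each member had 1. Signal near background limits AMT1;3 and AMT1;5.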
